A study of Rattus norvegicus with 9 samples.

Results

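Sarcomere genes were followed across a series of rat femurs: 35 named genes for the thin filament, the Z-disc and the M-band of striated muscle, chosen by gene symbol from a fixed list of names. Of the 35, 33 matched a row of the deposited table of 31125 gene rows, taking the row with the highest count where a symbol recurred, and Myot and Myoz3 had no row under those symbols. All 33 passed the filter on low counts that left 15936 genes for testing. The study set 3 groups of 3 male rats beside each other at day 7 after surgery, 1 bulk RNA library each. In the GMTT group the growth plate of the distal femur was injured and a hydrogel named GMTT was given, which the series title describes as GelMA, TPGS and tea polyphenols. The GPI group had the same growth plate injury with no hydrogel named, and the Sham group had sham surgery. The labels call the femurs intact in GPI and Sham and the growth plate intact in GMTT, and they give no strain, age, sampling site within the femur or account of whether adhering muscle was removed.

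The sarcomere is the contractile unit of striated muscle. Thin filaments of actin, regulated by troponin and tropomyosin, are anchored in the Z-disc, and the thick myosin filaments are crosslinked at the M-band in the middle of the unit. Titin spans from Z-disc to M-band, nebulin runs along the thin filament, and many parts exist as separate genes for slow and fast fibres. Bone and marrow cells are not known to build sarcomeres, whereas several relatives of these genes (cytoplasmic actins, tropomyosins, filamins) serve the cytoskeleton of most cells.

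The markers Ttn, Neb and Acta1, which define striated muscle, had counts in all 9 libraries, and their levels differed widely between the groups. The 33 genes together took 2.49% ± 0.0844 of all counts in GMTT, 13.0% ± 0.0956 in GPI and 0.353% ± 0.00597 in Sham (SD, n = 3 each). Shares of other markers differed between the groups as well, and not all in the same direction. The 8 erythroid markers took 0.654% ± 0.00124 of counts in GMTT, 0.00187% ± 7.12e-05 in GPI and 1.22% ± 0.00780 in Sham, and the 8 neutrophil markers took 1.08% ± 0.0267, 0.000517% ± 3.92e-05 and 0.934% ± 0.0395 in the same order of groups. The GPI libraries, labelled as femur, therefore held almost none of these blood cell transcripts. The 8 bone and cartilage markers took 0.0680% ± 0.000612 in GMTT, 0.0117% ± 0.000328 in GPI and 0.103% ± 0.00287 in Sham. Transcripts of the 13 mitochondrially encoded genes took 6.05% ± 0.343, 26.2% ± 0.755 and 3.83% ± 0.185. Libraries held 15927429 to 19715997 counts, and Pearson correlations of log2 CPM were 0.996 to 0.997 within groups, 0.964 to 0.965 for GMTT with Sham, 0.732 to 0.734 for GMTT with GPI, and 0.631 to 0.633 for GPI with Sham. In bulk tissue, fewer cells of a type and less RNA per cell cannot be told apart, and the part that the amount of muscle in each specimen plays in the values that follow was not tested. Pooling of tissue is not mentioned in the labels, and p-values cover only the variation seen among these 9 libraries, which may be technical.

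All 33 sarcomere genes were highest in GPI, intermediate in GMTT and lowest in Sham, and for none of them did the libraries of any pair of groups overlap. Of all 15936 genes tested, 19.6% were separated in that order of groups and 52.7% in any order. Levels are given as normalised CPM, the counts of a library scaled to a common total by TMM, the trimmed-mean method of edgeR. In GPI against Sham, 33 of 33 were higher, while 40.1% of all genes tested were called higher and 48.1% lower (edgeR's quasi-likelihood test, Benjamini-Hochberg adjusted p below 0.05). In GMTT against GPI, 33 of 33 were lower, against 40.2% of all genes called lower and 45.7% called higher. In GMTT against Sham, 33 of 33 were higher, against 29.5% of all genes called higher and 28.3% called lower. The median log2 fold change of the members was 6.35 in GPI against Sham (range 2.24 to 8.05), -3.55 in GMTT against GPI (-4.85 to -1.69) and 2.81 in GMTT against Sham (0.55 to 3.92), where the medians of all genes tested were -0.19, 0.12 and -0.00. The largest adjusted p among the members was 2.51e-23, 2.69e-21 and 7.74e-13 in the same order of comparisons. Each group serves in 2 of the 3 comparisons, so the directions are not independent of each other. Scaling by library size alone kept 33 of 33 calls in each comparison but turned the split of all genes in GPI against Sham to 3521 higher and 11210 lower, against 6387 and 7662 with TMM, and in GMTT against GPI to 11503 higher and 3016 lower, against 7285 and 6400. With it the median of all genes was -1.28 and 1.22 in those comparisons, and that of the members 5.26 and -2.45.

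**Figure D1:**
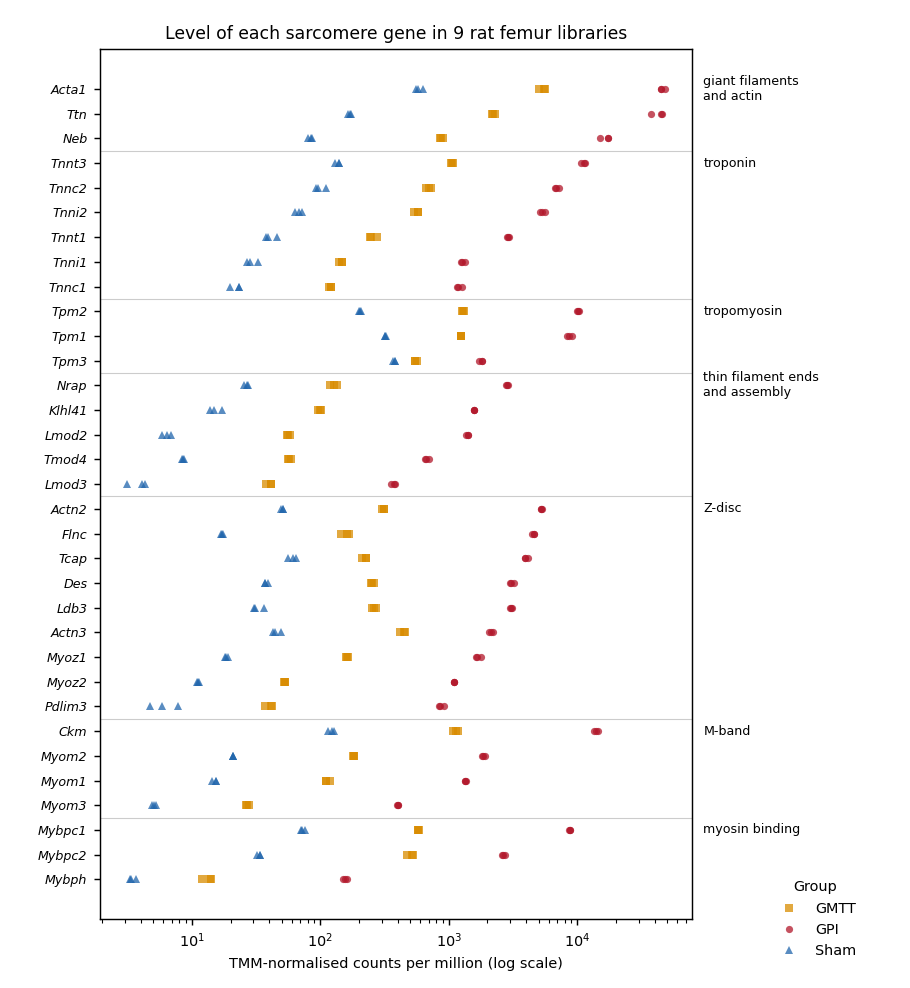
Normalised CPM (TMM-scaled, logarithmic axis) of each of the 33 sarcomere genes, ordered by role, with 1 point per library for GMTT, GPI and Sham. Every gene has 3 separate groups of points, GPI to the right, Sham to the left and GMTT between, and the gap is narrowest for Tpm3.

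The promoters of the genes with the largest and smallest differences are shown beside that of the most abundant member, since muscle genes that move together are known to share short regulatory motifs. RefSeq promoter windows on the GRCr8 assembly, a newer build than the one used for the counts, matched 26 of the 35 symbols by name (no entry for Tnnt3, Tnnc1, Nrap, Tcap, Myot, Myoz3, Pdlim3, Myom2 and Mybph). The 250 bases before each transcription start are printed 5′ to 3′ on the gene's strand, and capitals mark E-box, MCAT, CArG box and MEF2 matches on either strand. Acta1 (chr19:68784195-68784444, minus strand) had the highest level, Flnc (chr4:58999297-58999546, plus strand) the largest difference between GPI and Sham, Tpm3 (chr2:177814633-177814882, plus strand) the smallest, and Mybpc2 (chr1:104154102-104154351, minus strand) the largest difference between GMTT and Sham.
Acta1: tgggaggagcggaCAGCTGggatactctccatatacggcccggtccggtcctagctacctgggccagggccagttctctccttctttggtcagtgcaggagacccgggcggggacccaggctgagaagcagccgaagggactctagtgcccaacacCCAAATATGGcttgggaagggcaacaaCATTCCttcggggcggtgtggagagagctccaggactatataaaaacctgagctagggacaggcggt
Flnc: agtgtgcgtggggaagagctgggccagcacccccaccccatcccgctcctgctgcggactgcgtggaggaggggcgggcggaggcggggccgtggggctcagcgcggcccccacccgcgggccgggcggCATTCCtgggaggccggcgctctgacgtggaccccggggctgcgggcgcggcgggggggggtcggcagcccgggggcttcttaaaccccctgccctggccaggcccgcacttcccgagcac
Tpm3: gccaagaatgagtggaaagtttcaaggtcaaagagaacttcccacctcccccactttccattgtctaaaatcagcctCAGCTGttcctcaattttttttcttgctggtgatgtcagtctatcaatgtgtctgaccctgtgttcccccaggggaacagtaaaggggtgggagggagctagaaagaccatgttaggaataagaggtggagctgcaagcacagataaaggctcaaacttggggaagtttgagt
Mybpc2: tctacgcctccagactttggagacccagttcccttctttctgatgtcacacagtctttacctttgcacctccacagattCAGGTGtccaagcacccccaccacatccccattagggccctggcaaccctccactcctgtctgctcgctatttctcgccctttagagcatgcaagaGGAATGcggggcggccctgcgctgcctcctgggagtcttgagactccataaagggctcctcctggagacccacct
The Acta1 window held a CArG box, the binding motif of serum response factor, at bases -94 to -85 before the start, an MCAT motif at -67 to -62, and an E-box at -237 to -232, besides a TATAAA at -29 to -24 that is left in lower case. Flnc held an MCAT motif at -121 to -116 and no E-box, Tpm3 held an E-box, and Mybpc2 held an E-box and an MCAT motif. Over the 26 windows, the E-box CANNTG, bound by the MyoD family among other factors, was present in 22 (84.6%), against 65.5% of all 33469 windows of the same length. MCAT (CATTCC, bound by TEAD factors) was present in 4 (15.4% against 12.1%) and TATAAA in 4 (15.4% against 12.9%). The CArG box was present in 2, Acta1 and Ldb3 (7.69% against 1.50%), and the MEF2 motif in 5, namely Ttn, Klhl41, Myoz1, Myoz2 and Myom3 (19.2% against 2.96%). No 2 of these matches overlapped in a member. These are matches of letters in 1 window per gene, given as a description.

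Titin and nebulin, the longest proteins of the sarcomere, and skeletal alpha-actin, the core of the thin filament, carried a large part of the members' counts. Ttn (chr3:61652439-61924741, minus strand, mRatBN7.2, gene row of 113560 bases by the deposited length) had 2206, 2278 and 2164 normalised CPM in GMTT, 45897, 37228 and 44978 in GPI and 171, 174 and 164 in Sham. GPI replicate 2 was the lowest of its group, and even so lay far above every GMTT library. Ttn was higher in GPI than in Sham by a log2 fold change of 7.98 ± 0.08 (SE), lower in GMTT than in GPI at -4.27 ± 0.06, and higher in GMTT than in Sham at 3.71 ± 0.06. Neb (chr3:36613716-36811574, minus strand, 31319 bases) had 851, 902 and 865 normalised CPM in GMTT, 17327, 15047 and 17306 in GPI and 85.5, 83.9 and 79.7 in Sham, and GPI replicate 2 was again the lowest of GPI. Its log2 fold changes were 7.64 ± 0.07 for GPI over Sham, -4.25 ± 0.05 for GMTT over GPI and 3.39 ± 0.05 for GMTT over Sham, an order kept below. Acta1 (chr19:51883715-51886742, minus strand, 1453 bases), whose promoter is printed above, had 5649, 5538 and 5045 normalised CPM in GMTT, 44848, 47958 and 44506 in GPI and 581, 553 and 628 in Sham, with no overlap between groups. Its log2 fold changes were 6.28 ± 0.06, -3.08 ± 0.05 and 3.20 ± 0.05. The protein of Acta1 is nearly identical to that of the cardiac actin gene Actc1 and close to that of Acta2. The treatment of reads matching several genes is not stated by any label or file header, which leaves the counts of these related actins uncertain.

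Titin and nebulin stood highest relative to actin in GPI. Counts of Ttn per count of Acta1 were 0.391, 0.411 and 0.429 in GMTT, 1.02, 0.776 and 1.01 in GPI, and 0.294, 0.315 and 0.261 in Sham, a ratio within each library that no scaling between libraries alters. The 3 groups did not overlap, and the lowest GPI value was that of replicate 2. Nebulin per actin averaged 0.162 ± 0.0104 in GMTT, 0.363 ± 0.0427 in GPI and 0.142 ± 0.0131 in Sham (SD, n = 3 each), and its GMTT and Sham libraries overlapped. Nebulin per titin was 0.394 ± 0.00714 in GMTT, 0.389 ± 0.0138 in GPI and 0.489 ± 0.00982 in Sham. Thus Ttn and Neb kept nearly the same ratio in both injured groups and a higher one in Sham. These ratios are given as descriptions, since with 3 libraries against 3 an exact permutation test cannot go below 0.1. They set gene rows of very unlike length against each other, and the part of RNA quality or read coverage in them was not tested.

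The makeup of the members' counts differed between groups. Titin supplied 11.5% of them in GMTT, 19.7% in GPI and 6.17% in Sham, and actin 28.1%, 21.2% and 21.3%. The 3 tropomyosins supplied 16.1% in GMTT, 9.52% in GPI and 32.8% in Sham, of which Tpm3 alone was 2.87%, 0.826% and 13.7%. Troponins supplied 14.7%, 13.3% and 14.4%, and the Z-disc genes 9.84%, 11.9% and 10.2%. Long genes yield more fragments per transcript, so these shares are of counts and not of molecules.

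**Figure D2:**
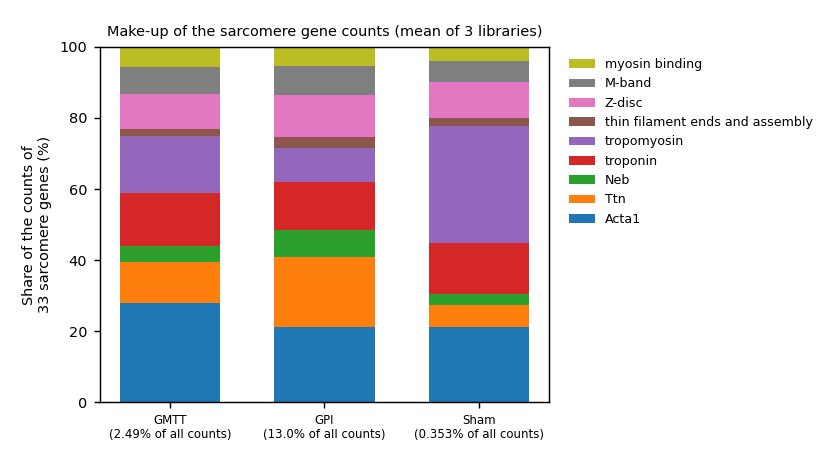
Share of the members' summed counts (percent, stacked to 100) held by Acta1, Ttn, Neb and each further role, as means of 3 libraries for GMTT, GPI and Sham, with the members' share of all counts printed for each group. The tropomyosin part is widest in Sham (32.8%) and the Ttn part widest in GPI (19.7%).

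Per length, the order of levels within the group was led by actin everywhere. In FPKM (fragments per kilobase, scaled by the authors), Acta1 averaged 3713 ± 232 in GMTT, 31397 ± 1193 in GPI and 394 ± 23.9 in Sham (SD, n = 3 each). In GPI it was followed by Ckm at 9618 ± 304 and Tnnc2 at 9253 ± 363, with Ckm the higher in each of the 3 libraries. Tcap, Tnnt3 and Tnni2 came next, between 3810 and 4088 FPKM. Mybph and Myom3 were lowest there, at 83.7 ± 3.07 and 84.4 ± 0.850 FPKM, within their spread of each other. Ttn was second to Acta1 by mean counts in GPI, where counts of Ttn per count of Acta1 were 1.02, 0.776 and 1.01. In FPKM, Ttn averaged 19.5 ± 0.529 in GMTT, 375 ± 42.8 in GPI and 1.46 ± 0.0504 in Sham, which ranked it at 29, 28 and 32 of the 33. Tpm3 changed place most, ranking 10 in GMTT, 22 in GPI and 3 in Sham.

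Troponin is the calcium switch of the thin filament: troponin C binds calcium, troponin I inhibits contraction and troponin T ties the complex to tropomyosin, each with a slow and a fast gene. The 6 genes were all higher in GPI than in Sham (median log2 fold change 6.13), lower in GMTT than in GPI (-3.33) and higher in GMTT than in Sham (2.73). The slow gene Tnnt1 had 246, 249.9 and 275 normalised CPM in GMTT, 2859, 2886 and 2918 in GPI and 37.9, 39.2 and 45.9 in Sham. Its fast partner Tnnt3 had 1035, 1081 and 1060.3 normalised CPM in GMTT, 11410.5, 11281 and 10686 in GPI and 131, 139 and 139 in Sham. The log2 fold changes of Tnnt1 and Tnnt3 were 6.14 ± 0.06 and 6.35 ± 0.05 in GPI against Sham. They were -3.49 ± 0.06 and -3.39 ± 0.05 in GMTT against GPI, and 2.65 ± 0.06 and 2.96 ± 0.05 in GMTT against Sham. Slow Tnni1 had 147, 148 and 141 normalised CPM in GMTT, 1274, 1347 and 1239 in GPI and 27.1, 28.5 and 32.9 in Sham. Fast Tnni2 had 572, 576 and 533 normalised CPM in GMTT, 5098, 5659 and 5320.0 in GPI and 67.8, 71.6 and 63.9 in Sham. Here the fast gene had the larger difference between GPI and Sham, 6.30 ± 0.06 against 5.45 ± 0.06 for Tnni1. Tnnc1, the troponin C of slow and cardiac muscle, had 120.1, 121 and 116 normalised CPM in GMTT, 1162, 1271 and 1182 in GPI and 19.8, 23.1 and 23.4 in Sham. Tnnc2, that of fast muscle, had 705, 726 and 667 normalised CPM in GMTT, 6722, 7275 and 6864 in GPI and 95.6, 93.4 and 110.4 in Sham. In GMTT against Sham the log2 fold changes were 2.43 ± 0.06 for Tnnc1 and 2.81 ± 0.06 for Tnnc2. Tnni2 and Tnnt3 lie 54870 bases apart on chromosome 1.

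The slow share, meaning slow FPKM over slow plus fast FPKM within a library, put the isoform pairs on a scale that needs no scaling between libraries. Slow Tnnt1 made up 41.3%, 40.7% and 43.5% of its pair in GMTT, 42.7%, 43.2% and 44.8% in GPI, and 46.3%, 45.6% and 49.4% in Sham. Slow Tnni1 made up 24.2%, 24.1% and 24.6% in GMTT, 23.6%, 22.7% and 22.4% in GPI, and 33.1%, 33.0% and 38.9% in Sham. Slow Tnnc1 averaged 8.98% ± 0.201 in GMTT, 9.12% ± 0.0626 in GPI and 11.4% ± 0.983 in Sham (SD, n = 3 each). All 3 slow troponin shares were thus lower in both injured groups than in Sham, with no overlap. The slow shares of the myosin binding and calsarcin pairs were also lower in GMTT than in Sham, but in GPI they were higher than in Sham. Mybpc1, the slow-type myosin binding protein C that fast fibres also express, made up 51.9%, 52.4% and 55.2% of its pair in GMTT, 76.9%, 76.0% and 76.6% in GPI, and 68.9%, 68.7% and 67.4% in Sham. Myoz2, the calsarcin of slow and cardiac muscle, made up 39.7%, 39.4% and 40.6% in GMTT, 57.4%, 55.4% and 57.2% in GPI, and 55.1%, 55.2% and 54.6% in Sham. Against GPI, the GMTT libraries were lower by 23.4 percentage points for Mybpc1 and 16.7 for Myoz2, but differed by -1.67 for Tnnt1, 1.40 for Tnni1 and -0.137 for Tnnc1. Against Sham, GMTT differed by -5.25, -10.7, -2.42, -15.2 and -15.1 points for Tnnt1, Tnni1, Tnnc1, Mybpc1 and Myoz2, and GPI by -3.57, -12.1, -2.28, 8.20 and 1.64. The exact permutation test (2-sided, 3 against 3) gave 0.1, the smallest p it allows, for 13 of the 15 differences, and 0.3 for Tnnt1 and Tnnc1 in GMTT against GPI. Adjusted over the 15 tests the values were 0.115 and 0.3, so none passed 0.05 in this design.

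**Figure D3:**
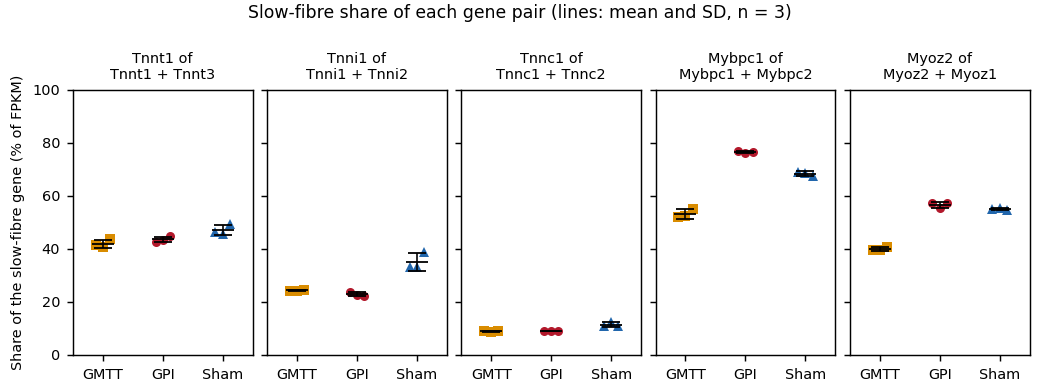
Slow share (percent of slow plus fast FPKM in the same library) of 5 gene pairs, 1 point per library, with bars at the mean of 3 for GMTT, GPI and Sham. The 3 troponin pairs sit lower in GMTT and GPI than in Sham, while Mybpc1 and Myoz2 sit lower in GMTT than in GPI and Sham.

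Tropomyosins, which lie along actin and gate myosin binding, had the smallest differences of any role, with median log2 fold changes of 4.76, -2.80 and 1.96. Tpm1, the alpha-tropomyosin gene, had 1236, 1244 and 1248 normalised CPM in GMTT, 8321, 9082 and 8586 in GPI and 316, 324 and 319 in Sham. Tpm2, the beta-tropomyosin gene, had 1277, 1322 and 1296 normalised CPM in GMTT, 9907, 10102 and 10357 in GPI and 198, 205 and 209 in Sham. Tpm3, whose promoter is printed above, codes for the slow muscle tropomyosin and for cytoplasmic forms found in many cell types, and it had 543, 547 and 565 normalised CPM in GMTT, 1723, 1819 and 1812 in GPI and 381, 382 and 367 in Sham. In each of these genes the groups stayed apart. The log2 fold changes were 4.76 ± 0.05, -2.80 ± 0.04 and 1.96 ± 0.04 for Tpm1. For Tpm3 they were 2.24 ± 0.04, -1.69 ± 0.04 and 0.55 ± 0.04, the smallest of the 33 members in all 3 comparisons. Counts per gene do not separate the muscle from the cytoplasmic transcripts of Tpm1 and Tpm3.

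The 5 genes for proteins that cap, lengthen or assemble the thin filament were called in the same directions, with median log2 fold changes of 6.67, -3.99 and 2.75. Lmod2, a leiomodin that elongates actin at the pointed end, had 54.6, 55.9 and 58.5 normalised CPM in GMTT, 1359, 1410.2 and 1419 in GPI and 5.82, 6.45 and 6.90 in Sham. Its log2 fold changes were 7.77 ± 0.07, -4.63 ± 0.05 and 3.14 ± 0.07, the third largest rise of the members in GPI. Nrap, a nebulin-related protein of assembling myofibrils and of the muscle-tendon junction, had 129, 134 and 119 normalised CPM in GMTT, 2832, 2891 and 2801 in GPI and 27.0, 25.3 and 27.4 in Sham. It stood at 6.74 ± 0.06 in GPI against Sham but at 2.26 ± 0.05 in GMTT against Sham, and its GMTT level was 4.48% of the GPI level. The actin nucleator Lmod3, the pointed-end cap Tmod4 and Klhl41, a kelch adaptor that stabilises nebulin, were higher in GPI than in Sham by 6.58, 6.29 and 6.67 on the log2 scale. The same 3 genes were 3.37, 2.75 and 2.68 higher in GMTT than in Sham.

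The 9 Z-disc genes with a row had median log2 fold changes of 6.55, -4.08 and 2.74 and spanned a wide range, 5.56 to 8.05 in GPI against Sham. Flnc, the muscle filamin that crosslinks actin at the Z-disc and the membrane, had 163, 166 and 146 normalised CPM in GMTT, 4603, 4600.2 and 4473 in GPI and 16.8, 17.3 and 17.3 in Sham. At 8.05 ± 0.06 and -4.85 ± 0.05 it had the largest difference of the 33 in the first 2 comparisons, and its GMTT level was 3.47% of that in GPI. In GPI against Sham, Ttn at 7.98 ± 0.08 lay within these standard errors of Flnc. Pdlim3, which binds alpha-actinin, had 42.2, 41.5 and 36.8 normalised CPM in GMTT, 855, 916 and 842 in GPI and 4.75, 7.75 and 5.89 in Sham, and its log2 fold changes were 7.14 ± 0.10, -4.44 ± 0.08 and 2.70 ± 0.10. The alpha-actinins crosslink thin filaments at the Z-disc, Actn2 in all fibres and Actn3 in fast ones. Actn2 had 313, 314 and 299 normalised CPM in GMTT, 5233, 5299 and 5177 in GPI and 51.4, 49.5 and 51.5 in Sham. Actn3 had 445, 458 and 417 normalised CPM in GMTT, 2134, 2224 and 2055 in GPI and 42.6, 44.0 and 49.4 in Sham. Counts of Actn3 per count of Actn2 were 1.42, 1.46 and 1.39 in GMTT, 0.408, 0.420 and 0.397 in GPI, and 0.830, 0.890 and 0.958 in Sham. GMTT libraries stood highest in this ratio and GPI libraries lowest, with no overlap. Actn3 differed by 5.56 ± 0.06, -2.28 ± 0.05 and 3.28 ± 0.06, and Actn2 by 6.69 ± 0.05, -4.08 ± 0.05 and 2.60 ± 0.05.

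Tcap, the telethonin that caps the ends of 2 titin molecules at the Z-disc, had 226, 227 and 210.1 normalised CPM in GMTT, 3934, 4170.3 and 3942 in GPI and 61.6, 56.0 and 64.5 in Sham. It was among the members with the smallest difference between GMTT and Sham, 1.87 ± 0.05, although its difference between GPI and Sham was 6.05 ± 0.06. The calsarcins tether calcineurin to the Z-disc. Fast-fibre Myoz1 had 164, 162 and 158 normalised CPM in GMTT, 1639, 1783 and 1672 in GPI and 18.0, 18.4 and 19.1 in Sham. Myoz2 had 53.6, 52.2 and 53.5 normalised CPM in GMTT, 1094, 1096 and 1105 in GPI and 11.0, 11.3 and 11.4 in Sham. Their log2 fold changes were close in GPI against Sham, 6.52 ± 0.06 for Myoz1 and 6.61 ± 0.06 for Myoz2, but lay apart in GMTT against GPI, -3.40 ± 0.05 and -4.37 ± 0.05. Ldb3, a PDZ and LIM protein that binds alpha-actinin, differed by 6.55, -3.55 and 3.00, and Des, the intermediate filament desmin that links Z-discs to each other, by 6.35, -3.61 and 2.74. A row annotated as myotilin-like, which was not counted as the member Myot, averaged 155 normalised CPM in GMTT, 2649 in GPI and 19.0 in Sham, and differed by 7.12, -4.09 and 3.03 on the log2 scale.

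The 4 M-band genes lay close together, between 6.30 and 6.84 in GPI against Sham. Myom1, Myom2 and Myom3, the myomesins that crosslink thick filaments, differed by 6.48, 6.48 and 6.30 in GPI against Sham, by -3.57, -3.36 and -3.89 in GMTT against GPI, and by 2.90, 3.12 and 2.41 in GMTT against Sham. Ckm, the muscle creatine kinase that regenerates ATP and in part sits at the M-band, had 1181, 1148 and 1083 normalised CPM in GMTT, 13988, 14418 and 13400.2 in GPI and 122, 114 and 129 in Sham. Its log2 fold changes were 6.84 ± 0.06, -3.61 ± 0.05 and 3.22 ± 0.05. Counts of Ckm per count of Ttn averaged 0.513 ± 0.0191 in GMTT, 0.330 ± 0.0497 in GPI and 0.719 ± 0.0651 in Sham (SD, n = 3 each).

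Myosin binding proteins tune how myosin heads meet the thin filament. Mybpc1 had 572, 576 and 589.9 normalised CPM in GMTT, 8787, 8813 and 8673 in GPI and 76.0, 71.4 and 70.6 in Sham. Fast-type Mybpc2, whose promoter is printed above, had 525, 519 and 476 normalised CPM in GMTT, 2618, 2759.6 and 2622 in GPI and 34.0, 32.3 and 33.9 in Sham. Mybpc2 differed by 6.32 ± 0.06, -2.40 ± 0.05 and 3.92 ± 0.05, the last being the largest difference of any member between GMTT and Sham, a 15.2-fold level. Its GMTT level was 19.0% of the GPI level, against 6.61% for Mybpc1. Mybph, the short relative myosin binding protein H, had 14.1, 13.8 and 11.9 normalised CPM in GMTT, 149.9, 162 and 156 in GPI and 3.33, 3.33 and 3.68 in Sham. At 1.94 ± 0.10 it was one of the 3 members with the smallest difference between GMTT and Sham, beside Tpm3 and Tcap.

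To ask whether members moved more or less than muscle genes in general, the libraries were rescaled on 14 muscle genes that are not members, among them Myh2, Myh4, Ryr1, Atp2a1 and Casq1. This moved the median of all genes tested to -6.79, 3.59 and -3.12. On this scale 8 members were higher, 17 lower and 8 not called in GPI against Sham (0.558% of all genes higher, 97.6% lower). In GMTT against GPI 12 were higher, 14 lower and 7 not called (95.5% of all genes higher, 1.69% lower), and in GMTT against Sham 5 were higher, 20 lower and 8 not called (0.515% higher, 96.8% lower). The members' medians were -0.25, -0.07 and -0.31. The 14 muscle genes themselves ranged from -3.97 to 1.00 in GPI against Sham, -1.16 to 1.03 in GMTT against GPI and -3.20 to 0.57 in GMTT against Sham on the same scale, a spread the test does not take into account. The lowest value in both comparisons with Sham came from the same gene, and the medians of the 14 were 0.06, 0.09 and -0.002.

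Highest of the members on the muscle scale in GPI against Sham were Flnc at 1.45, Ttn at 1.37 and Lmod2 at 1.17, with Neb next at 1.04. All 4 lay above every one of the 14 muscle genes. Lowest of the members were Tpm3 at -4.36, Tpm1 at -1.84 and Tnni1 at -1.16. High values were not particular to the members. Of the lists described below, the thick filament genes reached 1.45 and the 23 further sarcomere and Z-disc genes 2.52. All 6 troponins and all 3 tropomyosins were lower on this scale in GPI than in Sham, as were 97.6% of all genes. The count is thus near the share of all genes, which is not a share of muscle genes. Among muscle genes, 6 of the 14, 4 of 9 thick filament genes and 14 of the 23 further sarcomere and Z-disc genes were lower. The 14 muscle genes and the thick filament genes share members. Highest in GMTT against GPI were Tpm3 at 1.79, Actn3 at 1.20 and Mybpc2 at 1.09, and lowest were Flnc at -1.37, Lmod2 at -1.15 and Nrap at -1.0. These comparisons share the GPI libraries, and their values are set side by side only. By role, 3 of 3 tropomyosins and 4 of 6 troponins were higher in GMTT than in GPI, where 95.5% of all genes were. Of the Z-disc genes 6 of 9 were lower, where 1.69% of all genes were. Lower in this comparison were also 14 of the 23 further sarcomere and Z-disc genes, 5 of 9 thick filament genes and 5 of the 14 muscle genes. In those lists 5, 3 and 7 genes were higher. The 4 troponins became 2 without GPI replicate 1, and 1 higher with 1 lower when libraries were scaled on the summed counts of the 14 genes. The 6 lower Z-disc genes became 5 without GMTT replicate 1, 2 or 3 and with the replicate number in the model, and 7 with the summed counts. In GMTT against Sham, Mybpc2 at 0.80 and Ttn at 0.59 led, followed by Neb at 0.27, and Tpm3 at -2.57, Tcap at -1.25 and Mybph at -1.17 were lowest. The count of 5 higher in GMTT against Sham fell to 3 without GMTT replicate 2, GPI replicate 1 or GPI replicate 3, and was 3 when libraries were scaled on the summed counts of the 14 genes and 8 when Myh2 and Myh4 were left out of them.

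**Figure D4:**
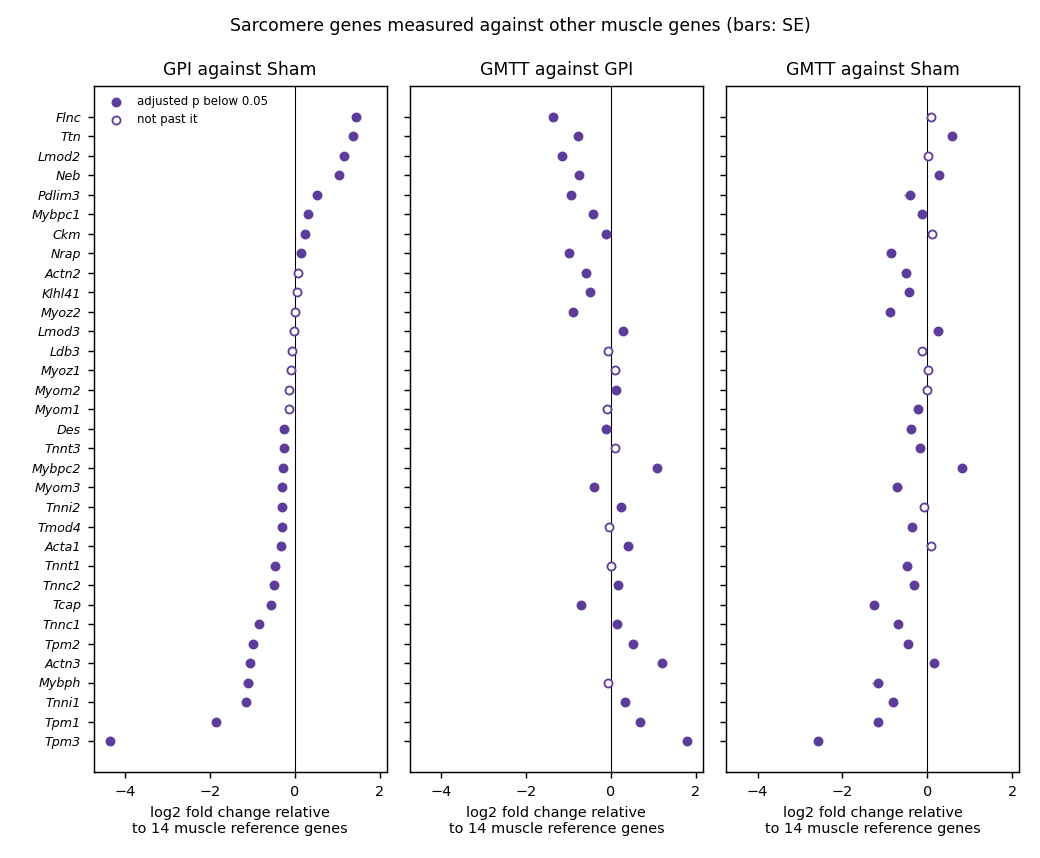
Log2 fold change of each of the 33 members after scaling the libraries on 14 muscle genes that are not members, 1 panel per comparison, with bars of 1 SE and a line at 0 where a gene moved as the median muscle gene did. Flnc, Ttn, Lmod2 and Neb lie to the right in GPI against Sham, and Tpm3 lies farthest to the left in both comparisons with Sham and farthest to the right in GMTT against GPI.

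Gene length was compared with the size of the difference, since Ttn and Neb are by far the longest members. Across the 33 members, Pearson's r between log length and the log2 fold change was 0.36 in GPI against Sham, -0.23 in GMTT against GPI and 0.33 in GMTT against Sham, and without Ttn and Neb it was 0.12, -0.06 and 0.12. Over all 15936 genes it was 0.13, -0.14 and 0.04. Spearman's rank correlation, which gives the extreme lengths of Ttn and Neb less weight, was 0.43, -0.23 and 0.29 across the 33 members. Over all genes the rank correlation was 0.10, -0.08 and 0.09. These are descriptions across genes that share the same 9 libraries.

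Other parts of the contractile apparatus followed the same order of groups. Of the 9 thick filament genes tested, 9 were higher in GPI than in Sham, 9 lower in GMTT than in GPI and 8 higher in GMTT than in Sham, with medians of 6.62, -3.60 and 2.99. The fast myosin heavy chain Myh4 averaged 3696 ± 35.4 normalised CPM in GMTT, 28106 ± 487 in GPI and 287 ± 5.44 in Sham (SD, n = 3 each). All 23 further sarcomere and Z-disc genes were called in the same directions (medians 6.10, -3.69 and 2.50), with Fhl1 at 444 ± 4.35 normalised CPM in GMTT, 5598 ± 51.6 in GPI and 113 ± 2.51 in Sham (SD, n = 3 each). Cardiac forms stayed low: the 7 genes together took 0.0105% ± 0.00132 of counts in GMTT, 0.0265% ± 0.00203 in GPI and 0.00121% ± 0.000304 in Sham, and 5 of 5 tested were higher in GPI than in Sham. The 7 tested markers of regenerating muscle and satellite cells were higher in GPI than in Sham in 7 of 7 (6 of 7 by library size alone), lower in GMTT than in GPI in 7 of 7 (6 of 7), and higher in GMTT than in Sham in 6 of 7. Among them, embryonic myosin Myh3 averaged 29.2 ± 1.81 normalised CPM in GMTT, 393 ± 1.59 in GPI and 6.16 ± 0.474 in Sham (SD, n = 3 each). Myh3 and Myh8 are also among the thick filament genes. Together the 8 listed markers of regenerating muscle and satellite cells took only 0.00529% of counts in GMTT, 0.0286% in GPI and 0.00109% in Sham. Of these markers, 4 reached 5 CPM in at least 3 libraries, so other calls rest on few counts.

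The non-muscle and smooth muscle relatives of the members split in direction. Of 17 such genes, 8 were higher and 9 lower in GPI than in Sham (7 and 9 by library size alone), 9 were higher and 8 lower in GMTT than in GPI (10 and 6 by library size alone), and 15 were higher in GMTT than in Sham. Cytoplasmic beta-actin, Actb, averaged 3339 ± 70.6 normalised CPM in GMTT, 745 ± 19.6 in GPI and 3049.9 ± 58.6 in Sham (SD, n = 3 each), the reverse of Acta1 between GPI and the other groups. The filamin Flna averaged 1362 ± 48.7 normalised CPM in GMTT, 399 ± 14.7 in GPI and 1035 ± 34.0 in Sham (SD, n = 3 each), where its muscle relative Flnc was highest in GPI. Acta2, Actg2 and Lmod1 belong both to the 17 relatives and to the smooth muscle and pericyte markers. These markers were higher in GPI than in Sham in 9 of 9, with a median log2 fold change of 2.71 (1.62 by library size alone). They were lower in GMTT than in GPI in 9 of 9, with a median of -1.44, and by library size alone in 7 of 9, with a median of -0.34. Of 6 adipocyte markers, 5 were higher and 1 lower in GPI than in Sham, and the split in GMTT against GPI turned with the scaling, 1 higher and 4 lower by TMM against 4 higher and 1 lower by library size alone. Erythroid markers went the opposite way to the members between GPI and both other groups: 8 of 8 were lower in GPI than in Sham (median -9.38), 8 of 8 higher in GMTT than in GPI (8.40) and 8 of 8 lower in GMTT than in Sham (-0.92). Of 8 bone and cartilage markers, 6 were lower in GPI than in Sham and 2 higher (7 lower and 0 higher by library size alone), and the part of these shifts in the members' values was not tested.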

How the data were processed

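Bulk RNA from 9 rat femurs was sequenced after poly(A) selection as strand-specific paired-end libraries, per the labels' protocols. The authors deposited whole-number counts per gene and FPKM per gene. Per the submitters' processing notes the genome was mRatBN7.2. The aligner, the counter and its handling of strand and multiple matches were not given in the sources used here. The deposited FPKM equalled count over length over 1 constant per library (largest relative deviation 5.11e-15).

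Counts were tested with edgeR 4.0.16 in R 4.3.3 (quasi-likelihood F test, robust, 2-sided, TMM scaling, minimum count 10, 9 libraries in 1 model of 3 groups), with Benjamini-Hochberg adjustment over 15936 genes and a threshold of 0.05. TMM factors averaged 1.29 in GMTT, 0.602 in GPI and 1.28 in Sham. The standard error of a log2 fold change is its size over the square root of F. The scripts were tested on simulated data. A second scaling used median-of-ratios factors over 14 of 16 listed muscle genes (Myh1 and Mylpf had no row under those symbols). Slow shares were compared by exact permutation tests. The tables held 0 columns of sample values beyond those used, and 563 rows without a symbol stayed in the tests.

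The members and the gene lists were chosen with earlier results of these data known. Every member is reported. Values per library are given for Ttn, Neb and Acta1, for the slow and fast pairs, for the 3 largest and 3 smallest fold changes against Sham, and for the 3 highest and 3 lowest on the muscle scale. Actn2, Tpm2, Pdlim3, Ckm and the promoters shown were added after their values were seen. From each other list, up to 3 genes with the highest mean CPM may be named.

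Same-numbered libraries of different groups deviated from their group means with correlations of -0.146 to 0.061, so the numbers were not taken to pair them. Replicates of a group differed by more than sampling noise (chi-square per degree of freedom 1.99 to 5.15). The biological coefficient of variation was 5.09%. Alternatives covered scaling, DESeq2 1.42.0, limma 3.58.1 on log2(FPKM + 1) and log2(FPKM + 0.1), filters, the samples in the fit and each library left out. Promoters came from RefSeq on GRCr8.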

Additional observations from a re-analysis of the deposited data

How the results depend on the processing

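With TMM scaling and the alternatives to it (median-of-ratios or library-size scaling, DESeq2, limma on 2 pseudocounts, no filter or at least 5 CPM in 3 libraries, 6 libraries per fit, the replicate block, and each library left out), all 1782 recomputed log2 fold changes of the 33 members kept their direction and their call. A 2-fold minimum left 33 members called for GPI over Sham, 33 for GMTT over GPI and 32 for GMTT over Sham, Tpm3 falling below it in the last, and it lowered the calls over all genes to 9285, 8453 and 1854. Leaving out 1 library gave 33 members in each comparison and, over all genes, 13858 to 14269, 13441 to 13881 and 8355 to 9282 calls. The replicate block gave 33 members in each comparison and 13960, 13574 and 8815 calls over all genes.

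On the muscle scale, 1114 recomputed member values kept their call, 25 gained a call and 49 lost one, where a value called in neither fit counts as kept. Of the 1188 values, 33 changed sign, 0 of them called in either fit. The 5 members higher in GMTT than in Sham became 8 without Myh2 and Myh4 among the muscle genes and 3 with summed counts of those genes, which also gave 8 higher and 19 lower in GMTT against GPI. Leaving out 1 library gave 7 to 9 higher and 17 to 18 lower in GPI against Sham, 9 to 12 higher and 12 to 14 lower in GMTT against GPI, and 3 to 6 higher and 16 to 21 lower in GMTT against Sham, and the cause was not tested. With the replicate block the splits were 7 and 17, 11 and 12, and 5 and 19. The slow shares kept their direction when any 1 library was left out. In Sham, Mybph had 68, 77 and 80 counts, and counting error limits such values.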
